A study of Mus musculus with 40 samples.

Results

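The genes described here are 6 core pluripotency factors of the mouse: Pou5f1, Sox2, Sall4, Lin28a, Lin28b and Utf1. They were taken by name from a gene count table of 56748 gene identifiers, and all 6 were among the 23399 genes that passed the filter on low counts and were tested. Total RNA was sequenced from 40 libraries of XY mouse embryonic stem (mES) cells and of the epiblast-like cells, EpiLCs, made from them. The study asked what happens to gene expression in both states when proteins that hold chromatin at the nuclear periphery are removed.

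Naive mES cells were grown without serum or feeder cells in 2i + LIF medium, which holds the inhibitors CHIR-99021 and PD0325901 and the cytokine LIF, and were collected 48 h after seeding. EpiLCs, a model of the primed state, were collected after 48 h in medium with FGF at 20 ng/mL and Activin A at 12 ng/mL in place of 2i + LIF. The groups of each stage were wild-type cells (WT, n = 8), cells with the lamin B receptor gene Lbr disrupted (LBRKO, n = 4), cells without the lamin genes Lmna, Lmnb1 and Lmnb2 (TKO, n = 4) and TKO cells in which Lbr was disrupted as well (QKO, n = 4). The QKO line is 1 clone, the TKO cells are 1 line, and several LBRKO clones were made, of which the sample labels do not say which was sequenced. A replicate is a culture well, so the spread between replicates is that between wells of a line and not between independent lines, and a difference of a genotype cannot be told apart from one of its clone. The paper reports that fewer LBRKO and TKO cells survived as EpiLCs than WT cells, and that QKO survival was severely impaired. RNA of mutant EpiLCs thus came from the cells that survived, and the part of survival in their levels was not tested. The study's methods report TKO cells with 3 copies of chromosome 8 and in part without a Y. In WT cultures 1 minor population had lost the Y, and another had gained both chromosomes 6 and 8 and lost the Y. None of the 6 genes lies on these chromosomes. Over 718 expressed genes of chromosome 6 the median log2 difference from WT in mES cells was 0.36 in LBRKO, -0.18 in TKO and -0.22 in QKO. In EpiLCs it was 0.34, -0.16 and -0.26. Over 848 genes of chromosome 8 it was 0.08, -0.02 and 0.01 in mES cells. The part of chromosome copies in the levels of the 6 genes was not tested.

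Libraries held between 22594640 and 48863506 gene counts, with 26972 to 31946 genes detected. WT replicates 1 to 4 (25360443 to 33516247 counts) were sequenced about as deeply as TKO (22594640 to 33574993) and QKO (24491961 to 33019258), whereas WT replicates 5 to 8 (39434595 to 48863506) matched LBRKO (39734858 to 48139359). The labels name no batch, so where the call of 1 of the 6 genes changes with the WT set, the values against both sets are given. Of the targeted genes, Lmnb1 fell from 515 ± 21.0 CPM (counts-per-million after TMM scaling between libraries) in WT mES cells to 8.47 ± 0.261 in TKO (SD, n = 8 and 4) and to 13.8 ± 1.49 in QKO (SD, n = 4). Lmnb2 and Lmna fell in both lines in mES cells too, and in EpiLCs Lmnb1 and Lmnb2 did while Lmna, already low in WT EpiLCs, differed by less than 2-fold. Lbr RNA did not pass the 2-fold threshold in LBRKO (209 ± 64.4 against 372 ± 20.6 in WT mES cells) or QKO (237 ± 1.49); the disruption was by small insertions and deletions, so the level of Lbr RNA does not check those labels. Naive markers summed to 4211 to 5991 CPM in the mES libraries and to 182 to 460 in the EpiLC libraries, and primed markers to 209 to 330 in mES and 3104 to 4936 in EpiLC libraries. Summed markers of fibroblasts reached at most 24.1 CPM, and those of 2-cell-like cells at most 10.6.

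OCT4, the product of Pou5f1, is a POU-domain transcription factor without which the pluripotent epiblast does not form. It binds composite DNA elements together with SOX2, an HMG-box factor, and SALL4 is a zinc-finger factor that joins them and the chromatin-remodelling complex NuRD. LIN28A and LIN28B are RNA-binding proteins that block the maturation of the let-7 microRNAs, and let-7 in turn represses the Lin28 messages, so that the pair form a switch between an early and a differentiated state. UTF1 is a chromatin-associated factor of undifferentiated embryonic cells whose gene is a known target of OCT4 and SOX2.

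Differences are log2 fold changes ± SE from edgeR's quasi-likelihood test over all tested genes, with p-values adjusted by the Benjamini-Hochberg method. A gene is said to have risen or fallen where the adjusted p was below 0.05 and the difference exceeded 2-fold, and is then called. In bulk RNA, fewer cells that express a gene and less RNA per cell cannot be told apart.

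Per kilobase of exon, the scale on which genes can be compared with each other, Pou5f1 (172 CPM per kb), Sox2 (157) and Sall4 (104) led in WT mES cells, ahead of Lin28a (44.1) and Utf1 (37.7), and Lin28b was at 1.37. In WT EpiLCs the order was different. Utf1 stood at 493 CPM per kb, Pou5f1 at 218, Lin28a at 168, Sall4 at 70.4, Sox2 at 28.0 and Lin28b at 8.20. In mES cells the DNA-binding trio was thus the most abundant of the 6, and in EpiLCs Utf1 was.

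**Figure D1:**
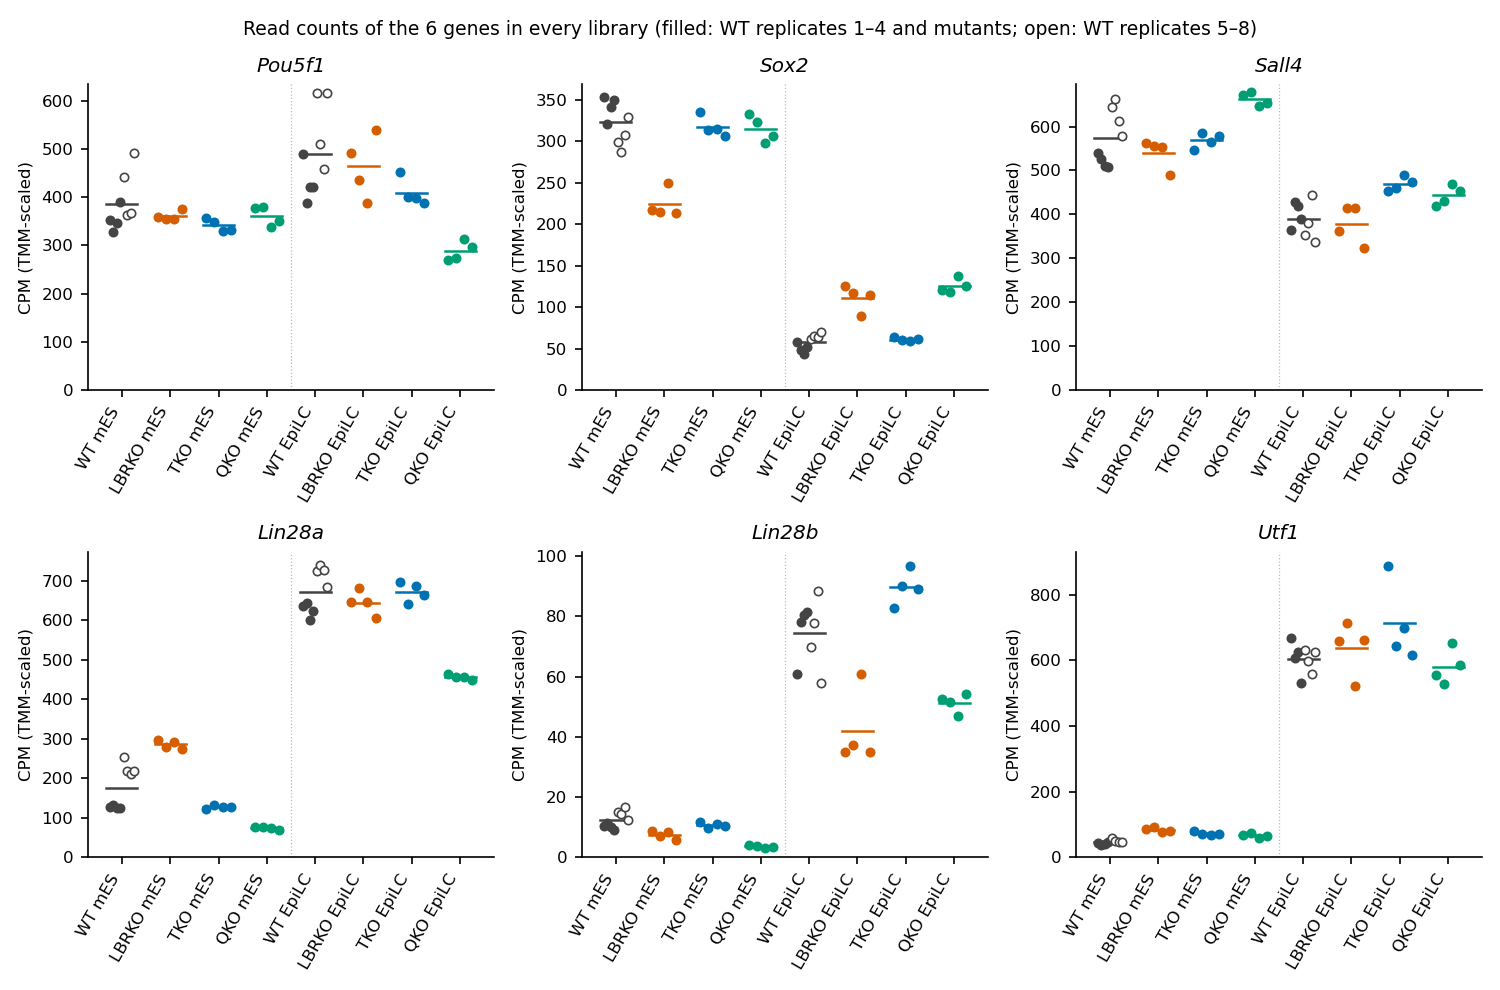
Level of the 6 genes in CPM in each of the 40 libraries, by genotype and stage; points are libraries (open for WT replicates 5 to 8) and bars are group means. Utf1, Lin28a and Lin28b are higher in every EpiLC group than in every mES group, Sox2 is lower, and Pou5f1 is lowest in QKO EpiLCs (270 to 314 CPM).

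The transition from mES cells to EpiLCs in WT cells moved 4 of the 6 genes past the threshold, 3 up and 1 down, in a comparison in which 31.1% of all tested genes were called. Utf1 rose 13.1-fold, Lin28b 5.95-fold and Lin28a 3.81-fold, and Sox2 fell 5.60-fold. Pou5f1 and Sall4 were within 1.5-fold of their mES levels. Over all tested genes 4270 rose and 3007 fell, and the median was 0.07 on the log2 scale.

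Utf1 was at 38.6 to 58.4 CPM (median 45.3) in the 8 WT mES libraries and at 530 to 667 CPM (median 616) in the 8 WT EpiLC libraries. No EpiLC library came near an mES library. The log2 fold change was 3.71 ± 0.08 (adjusted p = 9.64e-34). Utf1 lies on chromosome 7 (139523702 to 139525025, plus strand, GRCm39).

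Lin28a spanned 124 to 253 CPM (median 172) in WT mES cells and 600 to 740 CPM (median 664) in WT EpiLCs, so the stages did not overlap. Its log2 fold change was 1.93 ± 0.10 (adjusted p = 3.23e-20). Within the mES libraries the 2 WT sets were apart: replicates 1 to 4 averaged 127 ± 3.85 CPM and replicates 5 to 8 averaged 225 ± 18.7 CPM (SD, n = 4 each), and the rise was 2.30 with the first set and 1.67 with the second. Lin28a lies on chromosome 4 (133730641 to 133746152, minus strand).

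Lin28b, the scarcest of the 6, was at 9.0 to 16.8 CPM (median 11.9) in WT mES cells and at 57.8 to 88.3 CPM (median 77.9) in WT EpiLCs, again without overlap. It rose by 2.57 ± 0.12 on the log2 scale (adjusted p = 5.57e-23). Lin28b is a long gene on chromosome 10 (45252716 to 45362491, minus strand).

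Sox2 went the other way. It held 287 to 353 CPM (median 325) in WT mES cells and 43.4 to 70.2 CPM (median 59.4) in WT EpiLCs, and the log2 fold change was -2.48 ± 0.07 (adjusted p = 2.66e-29). Every mES library was above every EpiLC library. Sox2 is a gene of 1 exon on chromosome 3 (34704554 to 34706610, plus strand).

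Pou5f1 ranged over 329 to 492 CPM (median 366) in WT mES cells and over 388 to 617 CPM (median 475) in WT EpiLCs, and the ranges overlapped. The log2 difference of 0.35 ± 0.08 had an adjusted p of 2.36e-04 and was under 2-fold. Sall4 was at 507 to 663 CPM (median 560) in mES cells and at 338 to 443 CPM (median 385) in EpiLCs, with no overlap and a difference of -0.56 ± 0.06 (adjusted p = 4.51e-11), also under 2-fold. Pou5f1 lies on chromosome 17 (35816915 to 35821669, plus strand) and Sall4 on chromosome 2 (168590252 to 168609863, minus strand).

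The start regions of the genes that moved are shown because these genes rose or fell together in the transition. Each is the RefSeq window (GRCm38.p6) of 250 bases before to 50 after an annotated start, found once in GRCm39 at the position given, and capitals mark motifs searched on both strands: the GC box GGGCGG, the CCAAT box CCAAT, the octamer core ATGCAAA, the SOX cores ACAAAG and ACAATG, the E-box CACGTG and the TATA box TATAAA.
Utf1, chr7:139523519-139523818, plus strand: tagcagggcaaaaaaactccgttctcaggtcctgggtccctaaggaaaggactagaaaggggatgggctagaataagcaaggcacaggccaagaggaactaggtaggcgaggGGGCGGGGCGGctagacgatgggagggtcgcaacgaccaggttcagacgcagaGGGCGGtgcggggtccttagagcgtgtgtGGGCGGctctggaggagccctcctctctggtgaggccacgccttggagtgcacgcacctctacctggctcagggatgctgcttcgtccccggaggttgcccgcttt
Lin28a, chr4:133746078-133746377, minus strand: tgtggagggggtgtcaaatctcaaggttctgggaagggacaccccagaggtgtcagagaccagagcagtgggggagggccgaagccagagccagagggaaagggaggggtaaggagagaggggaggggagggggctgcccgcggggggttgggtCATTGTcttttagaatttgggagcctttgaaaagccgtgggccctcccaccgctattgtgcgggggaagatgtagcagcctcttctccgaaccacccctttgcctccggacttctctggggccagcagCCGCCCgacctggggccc
Lin28b, chr10:45346248-45346547, minus strand: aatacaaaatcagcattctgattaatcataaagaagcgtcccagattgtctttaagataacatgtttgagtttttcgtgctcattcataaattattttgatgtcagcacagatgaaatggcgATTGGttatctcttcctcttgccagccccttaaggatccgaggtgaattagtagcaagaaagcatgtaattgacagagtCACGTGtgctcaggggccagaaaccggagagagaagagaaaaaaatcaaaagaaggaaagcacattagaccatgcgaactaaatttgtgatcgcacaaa
Sox2, chr3:34703894-34704193, plus strand: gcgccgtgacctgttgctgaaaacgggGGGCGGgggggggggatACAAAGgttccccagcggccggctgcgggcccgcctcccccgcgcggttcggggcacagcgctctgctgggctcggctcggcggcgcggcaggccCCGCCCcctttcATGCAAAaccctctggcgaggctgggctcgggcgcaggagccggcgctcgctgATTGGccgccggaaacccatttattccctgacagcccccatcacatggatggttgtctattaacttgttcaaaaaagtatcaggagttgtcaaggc

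No motif of this search was in all 3 genes that rose, and the TATA box was in none of the windows shown. Utf1 holds 4 GC boxes, Lin28a 1 GC box and 1 SOX core, and Lin28b a CCAAT box and an E-box, whereas Sox2 holds 2 GC boxes, a CCAAT box, a SOX core and an octamer core. Of 32851 RefSeq windows of this length, 35.7% hold a GC box, 37.4% a CCAAT box, 18.7% and 12.6% the SOX cores ACAAAG and ACAATG, 13.6% the TATA box, 7.15% the E-box and 4.63% the octamer core. The Lin28b window is A and T rich (39.0% G and C), the others are G and C rich (62.0% for Utf1, 63.3% for Lin28a and 66.3% for Sox2), and the median of all windows was 52.7%. The Sox2 window ends before the gene's first exon base in the count table, and the Lin28b window lies inside the span of the gene. These matches are a description of letters only; binding was not measured.

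In LBRKO, TKO and QKO cells the transition called the same directions as in WT, with Utf1, Lin28a and Lin28b up and Sox2 down in each line. In the LBRKO transition 26.5% of all tested genes were called, in the TKO transition 30.3% and in the QKO transition 30.3%. Pou5f1 (0.36, 0.26 and -0.33 in LBRKO, TKO and QKO) and Sall4 (-0.51, -0.28 and -0.58) stayed under 2-fold in each. The size of the change, tested as a difference between transitions, set LBRKO and QKO apart from WT for Sox2 and QKO apart for Lin28b.

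Sox2 fell by 1.01 ± 0.10 on the log2 scale in LBRKO (adjusted p = 1.31e-11) and by 1.33 ± 0.10 in QKO (adjusted p = 3.91e-15), where the TKO change was -2.38 ± 0.10 (adjusted p = 6.02e-23) and the WT change -2.48. The LBRKO transition differed from that of WT by 1.48 ± 0.12 (adjusted p = 2.78e-12) and the QKO transition by 1.15 ± 0.12 (adjusted p = 3.64e-10). For TKO the difference was 0.10 ± 0.12 (95% interval -0.15 to 0.35, adjusted p = 0.729). Against WT replicates 5 to 8 alone the QKO difference was 0.90, under 2-fold, and the LBRKO difference was 1.23, and against replicates 1 to 4 they were 1.43 and 1.75. The LBRKO fall of 1.01 lies at the threshold: it was 0.90 with upper-quartile scaling, 0.92 without LBRKO EpiLC replicate 3 and 0.96 without LBRKO mES replicate 3.

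Lin28b rose 14.2-fold in QKO (3.83 ± 0.18 on the log2 scale, adjusted p = 1.53e-21) and 5.95-fold in WT, a difference of 1.25 ± 0.21 (adjusted p = 6.64e-06). With WT replicates 1 to 4 alone this difference was 0.94, under 2-fold, and with 5 to 8 it was 1.51. Lin28b rose by 3.07 ± 0.17 in TKO and by 2.49 ± 0.16 in LBRKO, and these transitions differed from that of WT by 0.50 (adjusted p = 0.107) and -0.08 (adjusted p = 0.835). Lin28a rose by 2.63 in QKO, 2.40 in TKO and 1.18 in LBRKO against 1.93 in WT. The LBRKO difference of -0.75 ± 0.17 (adjusted p = 0.00148) was under 2-fold against all 8 WT replicates of each stage. It was -1.12 against WT replicates 1 to 4 and -0.50 against 5 to 8. Utf1 rose less in the mutants than in WT, by -0.77 ± 0.13 in LBRKO (adjusted p = 1.53e-05), -0.58 ± 0.13 in QKO (adjusted p = 4.47e-04) and -0.41 ± 0.13 in TKO (adjusted p = 0.0354) on the log2 scale, each under 2-fold. All tested genes set the background: the difference from the WT transition was called for 6% in LBRKO, 3.03% in TKO and 12.6% in QKO, against 1, 0 and 2 of the 6 genes. For TKO, edgeR gave 4 of the 6 an unadjusted p below 0.05, and DESeq2 also called 0.

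**Figure D2:**
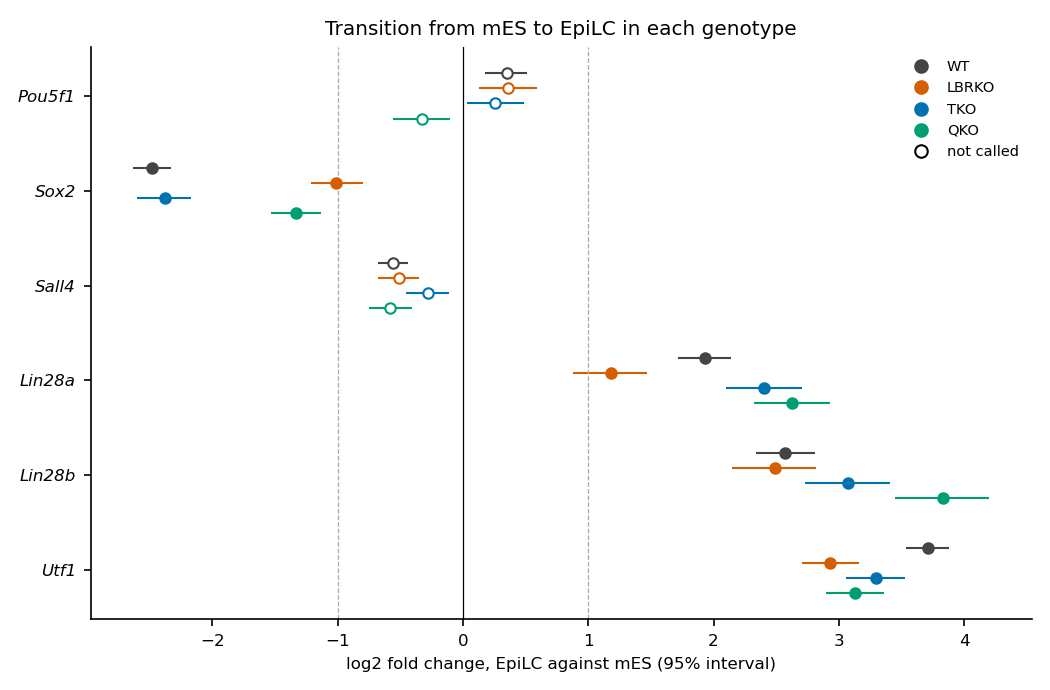
Log2 fold change of EpiLCs against mES cells for the 6 genes in WT, LBRKO, TKO and QKO cells; bars are 95% intervals, open points were not called and the dashed lines mark 2-fold. Sox2 changes by -2.48 in WT and -2.38 in TKO, and by -1.01 in LBRKO and -1.33 in QKO, and Lin28b rises most in QKO (3.83).

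In mES cells both Lin28 genes were lower in QKO than in WT, and none of the 6 genes passed the threshold in LBRKO or TKO. In QKO against WT 2 of the 6 were called where 17.2% of all tested genes were, in LBRKO 0 where 6.31% were, and in TKO 0 where 6.45% were. Before adjustment, edgeR gave 4 of the 6 genes a p below 0.05 in LBRKO and 2 in TKO, and DESeq2 also called 0 in both. The OCT4, SOX2 and SALL4 genes of QKO mES cells were close to WT. Pou5f1 differed by -0.09 ± 0.10 (95% interval -0.29 to 0.11), Sox2 by -0.04 ± 0.09 (-0.21 to 0.14) and Sall4 by 0.21 ± 0.07 (adjusted p = 0.0154).

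Lin28b held 4.09, 3.56, 3.22 and 3.53 CPM (126, 93, 82 and 103 reads) in the 4 QKO mES libraries, against 9.0 to 16.8 (median 11.9) in WT. All 4 were below every WT library, and also below TKO (11.7, 9.57, 11.0 and 10.3) and LBRKO (8.71, 7.13, 8.26 and 5.71). The fall was 3.46-fold against WT (log2 -1.79 ± 0.17, adjusted p = 7.65e-12) and 2.95-fold against TKO (-1.56 ± 0.18, adjusted p = 1.67e-08). It was the 1 of the 6 genes called between QKO and TKO mES cells, where 6.21% of all tested genes were called. LBRKO differed from WT by -0.74 ± 0.15 (adjusted p = 1.21e-04), with ranges that did not overlap, and TKO by -0.23 ± 0.14 (adjusted p = 0.287).

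Lin28a was at 77.7, 76.0, 72.7 and 69.3 CPM in QKO mES cells, under each WT library (124 to 253, median 172) and each TKO library (123, 132, 126 and 127). It fell 2.39-fold against WT (-1.26 ± 0.13, adjusted p = 1.65e-10). Against WT replicates 1 to 4, which match QKO in depth, the difference was -0.78, under 2-fold, as it was against TKO (-0.78 ± 0.14, adjusted p = 7.72e-05), and against WT replicates 5 to 8 it was -1.61. LBRKO mES cells had more Lin28a, at 297, 278, 293 and 274 CPM, above every WT library. Their difference of 0.69 ± 0.12 (adjusted p = 1.87e-05) was 1.16 against WT replicates 1 to 4 and 0.34 against replicates 5 to 8, which match LBRKO in depth. TKO differed from WT by -0.47 ± 0.13 (adjusted p = 0.00464), but by -0.00 from WT replicates 1 to 4 and by -0.83 from replicates 5 to 8.

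Relative to the sum of the LBRKO and TKO differences on the log2 scale, Lin28a in QKO mES cells was lower by -1.47 ± 0.19 (adjusted p = 7.75e-08), the 1 call among the 6 where 7.5% of all tested genes were called. Taken against WT replicates 1 to 4 it was -1.94, and against replicates 5 to 8 it was -1.12. LBRKO stood above WT and QKO below it, so the deviation joins differences of opposite sign. For Utf1 the deviation was -0.98 ± 0.14 (adjusted p = 7.27e-07) and for Lin28b -0.82 ± 0.23 (adjusted p = 0.00979), both under 2-fold. Against WT replicates 1 to 4 both were -1.11 and called, and against replicates 5 to 8 they were -0.86 and -0.59. Utf1 was also called with a replicate block (-1.04) and without the filter on low counts (-1.01). Its size was 1.00 to 1.04, and called, without any 1 of WT mES replicates 5 and 6, LBRKO mES replicate 3 and QKO mES replicate 2.

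Utf1 was higher than WT in all 3 mutants in mES cells, under 2-fold in each. The 8 WT libraries lay between 38.6 and 58.4 CPM. LBRKO held 85.4, 91.0, 76.5 and 81.4 CPM, TKO 79.9, 70.8, 68.3 and 71.3, and QKO 66.6, 74.9, 58.4 and 65.4. LBRKO and TKO did not overlap with WT, and QKO touched its highest library. The differences were 0.85 ± 0.09 (adjusted p = 5.58e-10), 0.65 ± 0.09 (adjusted p = 3.73e-07) and 0.52 ± 0.09 (adjusted p = 8.80e-06) on the log2 scale.

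Sox2 was lower in LBRKO mES cells, at 217, 215, 250 and 213 CPM, below all 8 WT libraries (287 to 353). The difference of -0.53 ± 0.09 had an adjusted p of 6.95e-06 and was under 2-fold. TKO (306 to 335 CPM) and QKO (298 to 333 CPM) lay within the WT range.

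**Figure D3:**
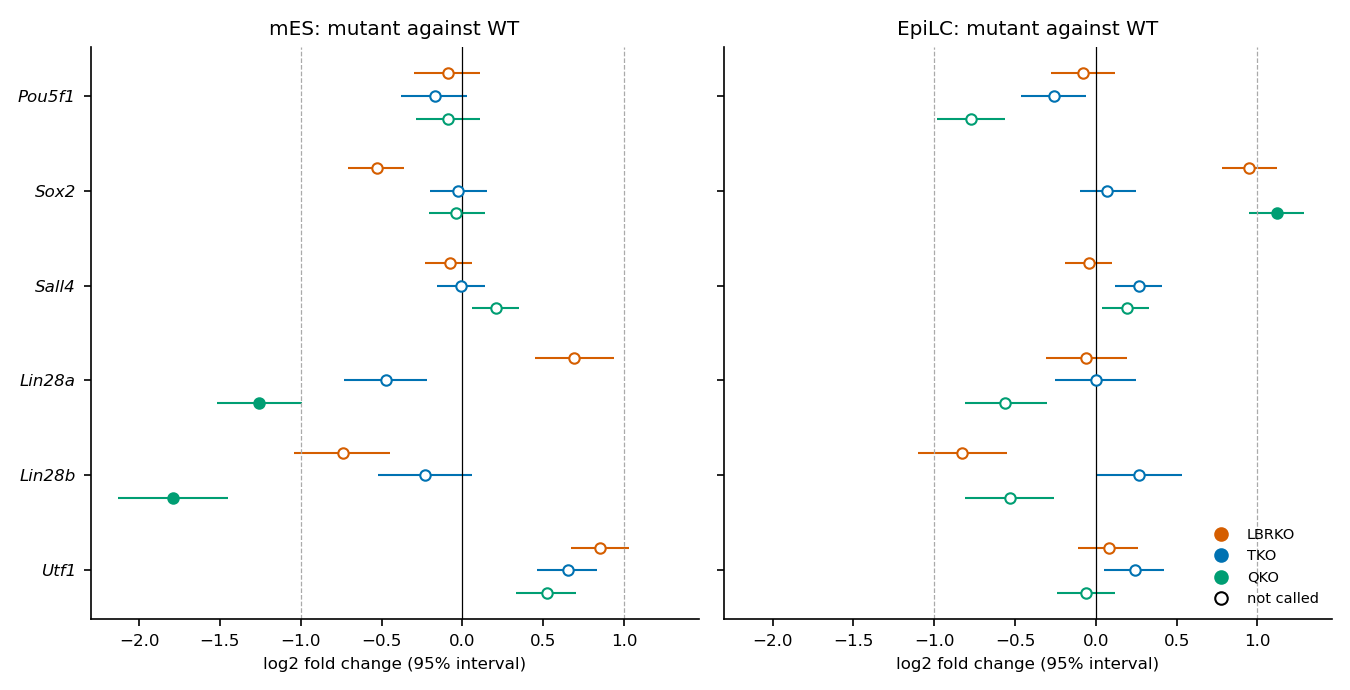
Log2 difference from WT of the same stage for the 6 genes in LBRKO, TKO and QKO cells, with 95% intervals; open points were not called and the dashed lines mark 2-fold. In mES cells Lin28a and Lin28b of QKO lie beyond the line (-1.26 and -1.79), and in EpiLCs Sox2 of QKO does (1.12).

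In EpiLCs, Sox2 was above WT in both lines that lack LBR, by 2.17-fold in QKO and 1.93-fold in LBRKO, and near WT in TKO (1.05-fold). QKO EpiLCs held 121, 118, 137 and 125 CPM of Sox2 and LBRKO EpiLCs 125, 117, 89.3 and 114, against 43.4 to 70.2 (median 59.4) in WT. No library of either line overlapped with WT or with TKO (63.4, 59.8, 58.5 and 61.5 CPM). The rise in QKO was called (1.12 ± 0.08, adjusted p = 9.25e-15), and the LBRKO difference of 0.95 ± 0.08 (adjusted p = 6.91e-12) was just under 2-fold.

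Sox2 was the 1 call among the 6 for QKO against WT EpiLCs, where 21.2% of all tested genes were called, and for QKO against TKO EpiLCs (1.04 ± 0.10, adjusted p = 3.29e-11), where 15.3% were. In LBRKO against WT EpiLCs 0 of 6 were called beside 5.67% of all tested genes, and in TKO against WT EpiLCs 0 beside 2.91%. Before adjustment 2 of the 6 had a p below 0.05 in LBRKO and 4 in TKO, and DESeq2 also called 0. Against WT replicates 1 to 4 (50.4 ± 6.10 CPM) the Sox2 differences were 1.32 in QKO and 1.14 in LBRKO, and against replicates 5 to 8 (65.0 ± 3.88 CPM) they were 0.94 and 0.78, so that both cross the 2-fold threshold with the WT set. Without LBRKO EpiLC replicate 3 the LBRKO difference was 1.04 for Sox2 and -1.06 for Lin28b, and both were called. Without QKO EpiLC replicate 3, the highest of its group, Sox2 differed between QKO and TKO by 0.99 and 0 of the 6 genes were called. For Sox2 the deviation of QKO from the sum of the LBRKO and TKO differences was 0.10 ± 0.13 (95% interval -0.17 to 0.37). This deviation was called for 0 of 6 genes and for 8.05% of all tested genes. By it, edgeR gave 3 of the 6 an unadjusted p below 0.05, and DESeq2 also called 0.

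Pou5f1 was lower in QKO EpiLCs, at 270, 273, 314 and 296 CPM, than in any other library, since WT EpiLCs began at 388, TKO EpiLCs at 389 and LBRKO EpiLCs at 389 CPM. The difference from WT was -0.77 ± 0.10 (adjusted p = 2.91e-08), 1.70-fold and not called. Its size depends on the WT set. WT EpiLCs averaged 430 ± 42.7 CPM in replicates 1 to 4, which match QKO in depth, and 550 ± 78.8 CPM in replicates 5 to 8 (SD, n = 4 each). QKO was the 1 genotype in which the Pou5f1 mean was lower in EpiLCs than in mES cells (288 ± 20.8 against 362 ± 20.1 CPM, SD, n = 4 each), and this transition differed from that of WT by -0.67 ± 0.14 (adjusted p = 1.80e-04).

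The Lin28 genes were also lower in QKO EpiLCs. Lin28a was at 463, 457, 457 and 448 CPM, under every other EpiLC library (600 to 740 in WT), with a difference of -0.56 ± 0.13 (adjusted p = 2.23e-04). Lin28b was at 52.6, 51.6, 47.0 and 54.1 CPM, under each WT library (57.8 to 88.3, median 77.9), and differed by -0.53 ± 0.13 (adjusted p = 7.93e-04). LBRKO EpiLCs held 34.9, 37.3, 60.7 and 34.8 CPM of Lin28b, of which replicate 3 lay within the WT range, and differed by -0.83 ± 0.14 (adjusted p = 6.90e-06). None of these differences reached 2-fold.

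Sall4 in TKO EpiLCs was at 453, 461, 489 and 474 CPM, above all WT EpiLC libraries (338 to 443), with a difference of 0.27 ± 0.07 (adjusted p = 0.00710). In QKO it was 0.19 ± 0.07 (adjusted p = 0.0265) with overlapping ranges. Utf1 varied most within TKO EpiLCs, where replicate 1 held 889 CPM and the others 645, 699 and 618, and its difference from WT was 0.08 (95% interval -0.11 to 0.26) in LBRKO, 0.24 (0.05 to 0.42, adjusted p = 0.0697) in TKO and -0.06 (-0.24 to 0.12) in QKO.

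Across all 8 groups, neighbours in the order of levels often overlapped. For Sox2 the order ran from WT, TKO and QKO mES cells, which overlapped, to LBRKO mES cells, then to QKO and LBRKO EpiLCs, which overlapped, and last to TKO and WT EpiLCs, which overlapped. For Lin28a it ran from TKO, WT and LBRKO EpiLCs, which overlapped, to QKO EpiLCs, LBRKO mES cells, then WT and TKO mES cells, which overlapped, and QKO mES cells. For Lin28b it ran from TKO and WT EpiLCs, which overlapped, to QKO and LBRKO EpiLCs, which overlapped with each other, WT and TKO mES cells, which overlapped, LBRKO mES cells and QKO mES cells. QKO EpiLCs lay below all WT EpiLCs, whereas LBRKO EpiLCs reached into the WT range through replicate 3. For Utf1 the 4 EpiLC groups overlapped in a chain, as did the 4 mES groups below them, and for Sall4 the 4 mES groups lay above the 4 EpiLC groups in the same way. For Pou5f1 the first 7 groups overlapped in a chain from WT EpiLCs (490 ± 87.0 CPM, SD, n = 8) down to TKO mES cells (342 ± 12.3 CPM, SD, n = 4), and only QKO EpiLCs lay apart.

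Because OCT4 binds with SOX2, the ratio of Sox2 to Pou5f1 counts per kilobase was taken within each library, where scaling between libraries cancels. In WT mES cells it lay between 0.731 and 1.10 (median 0.945), and in WT EpiLCs between 0.108 and 0.151 (median 0.132), without overlap. The log2 difference was -2.84 ± 0.10 (exact permutation test, two-sided, adjusted p = 0.00373 over 24 ratio tests). In QKO EpiLCs the ratio was 0.462 to 0.490, in LBRKO EpiLCs 0.231 to 0.293 and in TKO EpiLCs 0.153 to 0.173. All 3 lay above WT, by 3.69-fold in QKO (adjusted p = 0.00808), 2.03-fold in LBRKO (adjusted p = 0.00808) and 1.26-fold in TKO (adjusted p = 0.0121), each by the exact permutation test.

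QKO EpiLCs also lay above TKO EpiLCs (1.55 ± 0.04 on the log2 scale, exact permutation test, adjusted p = 0.0381, the smallest that 4 against 4 can give here). In mES cells LBRKO had the lowest ratio (0.621 to 0.768, -0.45 ± 0.11, exact permutation test, adjusted p = 0.0269). By the same exact test this difference was -0.26 (adjusted p = 0.0894) against WT replicates 5 to 8 and -0.64 (adjusted p = 0.0361) against replicates 1 to 4. Counts for Pou5f1 depend on how reads with several alignments are treated. When up to 100 alignments were allowed, Pou5f1 counts were 14.2 to 29.5% higher in the TKO, QKO and WT replicate 1 to 4 libraries and 1.92 to 20.2% higher in the others, while Sox2, Lin28b and Utf1 gained under 1%. Exons of Pou5f1, Sall4 and Lin28a are overlapped in part (14.1, 9.5 and 5.86% of their bases) by noncoding genes on the other strand, Gm19553, Gm14261 and Gm13061, and the strand setting of the counting is not given in the sources used here.

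The ratio of Lin28b to Lin28a was small in every library and lowest in LBRKO mES cells. In WT mES cells it was 0.0252 to 0.0374 (median 0.0336) and in LBRKO mES cells 0.00919 to 0.0129 (median 0.0119), without overlap, a 2.79-fold difference (exact permutation test, adjusted p = 0.00808). In QKO mES cells it was 0.0195 to 0.0232, 1.48-fold below WT without overlap (exact permutation test, adjusted p = 0.00808). In WT EpiLCs it was 0.0373 to 0.0593 (median 0.0499), higher than in WT mES cells (0.61 ± 0.12 on the log2 scale, exact permutation test, adjusted p = 0.00373). LBRKO EpiLCs were at 0.0238 to 0.0414 (-0.80 ± 0.21, exact permutation test, adjusted p = 0.0121), where replicate 3 had the 0.0414, and QKO EpiLCs at 0.0453 to 0.0532, within the WT range (0.03 ± 0.10, adjusted p = 0.820). For LBRKO EpiLCs the exact test gave -0.92 (adjusted p = 0.0361) against WT replicates 1 to 4 and -0.68 (adjusted p = 0.0623) against replicates 5 to 8.

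**Figure D4:**
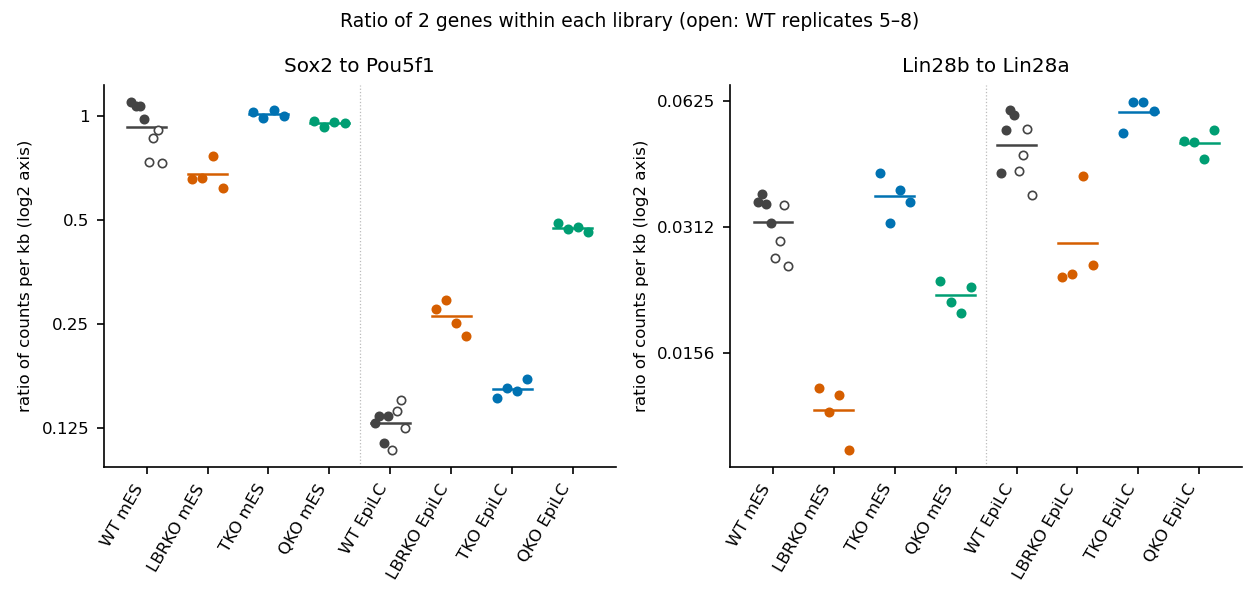
Ratio of Sox2 to Pou5f1 and of Lin28b to Lin28a, in counts per kilobase within a library (log2 axis), for the 40 libraries by group. Points are libraries (open for WT replicates 5 to 8) and bars are group means of the ratio. In EpiLCs the Sox2 to Pou5f1 ratio of QKO (0.462 to 0.490) and LBRKO (0.231 to 0.293) lies above WT (0.108 to 0.151), and in mES cells the Lin28b to Lin28a ratio of LBRKO (0.00919 to 0.0129) lies below WT.

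Reads on transposable element copies inside the genes but clear of exons were taken as a second readout, since the library held total RNA and the authors counted reads with a single alignment on single copies. A read on such a copy can come from the intron of the host gene or from a transcript of the element itself, and these cannot be told apart here. According to the paper, many families of transposable elements were more highly expressed in QKO than in WT mES cells. The paper reports far fewer such families in TKO and LBRKO mES cells. In QKO EpiLCs, it adds, this expression persisted but was more moderate. The part of transcripts of the elements in the values given here was not tested, in QKO or in any other group. Lin28b holds 159 such copies, Sall4 32, Lin28a 24, Pou5f1 2 and Sox2 and Utf1 none. The mean was 299 reads per library for Lin28b, 162 for Sall4, 99.6 for Lin28a and 25.6 for Pou5f1. In the WT transition the intronic reads of Lin28b went from 1.27 to 4.26 CPM (median 2.00) to 9.48 to 28.7 CPM (median 12.7), and those of Lin28a from 0.238 to 1.06 CPM (median 0.612) to 3.02 to 6.02 CPM (median 3.92). Neither overlapped between stages, and the log2 differences of 2.71 and 2.66 had an adjusted p of 0.00218 each (exact permutation test over 28 such tests). For Sall4 the intronic reads were higher in EpiLCs (3.71 to 5.80 against 2.06 to 3.85 CPM, 0.54 on the log2 scale, exact permutation test, adjusted p = 0.00435), while its exon counts were lower (-0.56).

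The differences of exon counts and of reads on intronic copies are given side by side for QKO. In QKO mES cells the Lin28a copies differed by -0.56 (0.430 against 0.623 CPM, exact permutation test, adjusted p = 0.471), where exon counts differed by -1.26. Lin28b copies held 2.31, 2.03, 1.92 and 1.78 CPM, inside the WT range (0.01 on the log2 scale, exact permutation test, adjusted p = 0.970), where exon counts differed by -1.79. In QKO EpiLCs Lin28a copies held 7.02, 8.03, 8.41 and 6.56 CPM, above every WT EpiLC library (0.84, exact permutation test, adjusted p = 0.00943), where exon counts differed by -0.56, and Lin28b copies differed by 0.05 (exact permutation test, adjusted p = 0.931) beside -0.53. Sall4 copies in QKO mES cells held 5.30, 6.47, 6.44 and 6.90 CPM, above all WT mES libraries (0.98, exact permutation test, adjusted p = 0.00943), beside an exon difference of 0.21, and in QKO EpiLCs 6.49 to 7.65 CPM (0.59, exact permutation test, adjusted p = 0.00943). The difference between the exonic and the intronic change was not itself tested. Nor was the part of transcripts of the elements, which the paper reports as raised in QKO, so these reads do not measure host gene transcription alone. Lin28b intronic reads varied widely between EpiLC wells: WT replicate 7 and LBRKO replicate 3 both had 28.7 CPM, and these libraries also had the highest intronic reads of Lin28a (6.02 and 5.75 CPM) and Sall4 (5.80 and 5.35 CPM) in their groups. With 4 WT replicates in place of 8 the smallest p of these tests is 0.0286 against a mutant, and none passed after adjustment.

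**Figure D5:**
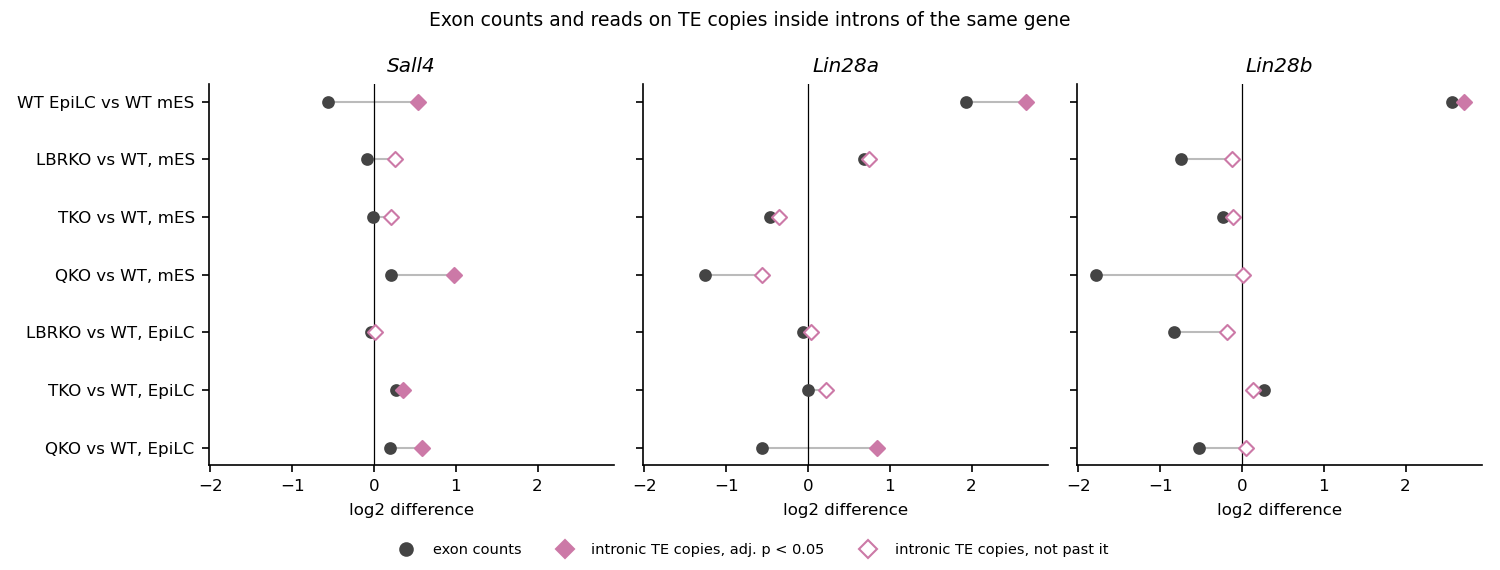
Log2 difference of exon counts (circles) and of reads on intronic transposable element (TE) copies (diamonds, filled where the adjusted p of the exact permutation test was below 0.05) for Sall4, Lin28a and Lin28b in 7 comparisons. Both readouts of Lin28a and Lin28b are far to the right in the WT transition, whereas Lin28b in QKO mES cells has an exon difference of -1.79 and an intronic one of 0.01.

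The let-7 sequences are shown because LIN28 acts on these microRNAs and they on the Lin28 messages. RefSeq lists 8 mature let-7 5′ arms that share the seed in capitals (bases 2 to 8), of which let-7a, let-7d and let-7i are given.
let-7a: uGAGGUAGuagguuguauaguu
let-7d: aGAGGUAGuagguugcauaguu
let-7i: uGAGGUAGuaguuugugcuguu

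The complement of the seed, CTACCTC, occurs 4 times in the 3′ UTR of Lin28b (4515 bases), 2 times in that of Lin28a (2775 bases), once in that of Sall4 (1697 bases) and not in those of Pou5f1, Sox2 and Utf1 in GENCODE M39. Of 20467 genes with a 3′ UTR, 10.1% hold 1 or more such matches and 1.29% more than 1. Lin28b is 1 of 11 genes with at least 4. The 2 matches of Lin28a and the last of Lin28b, with the match in capitals, read as follows.
Lin28a, chr4:133732501-133732522, minus strand: gcacagcctgttgaaCTACCTC
Lin28a, chr4:133731863-133731884, minus strand: gagatcgccacaaacCTACCTC
Lin28b, chr10:45253157-45253178, minus strand: aaatgatggcaccgaCTACCTC

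MicroRNA levels were not measured in these libraries. In QKO mES cells the exon counts of the 3 genes with a match differed from WT by -1.79 (Lin28b), -1.26 (Lin28a) and 0.21 (Sall4). Those of the 3 genes without a match differed by -0.09 (Pou5f1), -0.04 (Sox2) and 0.52 (Utf1). The part of let-7 in these differences was not tested.

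Genes of the LIN28 and let-7 axis, 23 in all (the let-7 processing enzymes and classical let-7 targets), mostly did not pass the threshold. Group values of listed genes are mean CPM ± SD over 8 WT and 4 mutant libraries. The medians over all tested genes were 0.07 in the WT transition, 0.01 in QKO mES cells and -0.01 in QKO EpiLCs. Over 10 stably expressed control genes they were 0.13, -0.14 and -0.18, and of these genes only Rplp0 was called, in QKO EpiLCs (-1.15 ± 0.12). Of all tested genes 31.1%, 17.2% and 21.2% were called in these comparisons, in that order, which is the background for each list. In the WT transition 2 rose and 3 fell, with a median of 0.13. Myc, a transcription factor of growth genes, rose by 4.28 ± 0.25 (120 ± 14.8 against 6.01 ± 4.64 CPM, SD, n = 8 each) and the cyclin gene Ccnd2 by 3.82 ± 0.24, while Arid3a fell by 1.65 ± 0.06 and Hmga2, a chromatin protein and let-7 target, by 1.33 ± 0.15. In QKO mES cells 1 rose and 2 fell (median -0.06). Hmga2 rose by 2.21 ± 0.16, to 125 ± 5.45 from 27.2 ± 6.82 CPM (SD, n = 4 and 8), in the cells in which both Lin28 genes fell, and it rose by 2.08 ± 0.16 in TKO mES cells (adjusted p = 1.34e-13), in which neither was called. Hmga1 fell by 1.40 ± 0.08 and Ccnd2 by 3.76 ± 0.53 (to 0.185 ± 0.152 from 2.40 ± 1.72 CPM) in QKO mES cells. In QKO EpiLCs none rose and 2 fell (Ccnd2, -1.54 ± 0.28, and Hmga1, -1.01 ± 0.08), with a median of -0.10.

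Among 22 paralogues of the POU, SOX and SALL families, 10 rose and 6 fell in the WT transition (median 0.29). Pou3f1, a POU factor of the primed epiblast, rose by 7.44 ± 0.12 (to 226 ± 19.7 CPM) and Sox3, the closest relative of Sox2, by 4.72 ± 0.17 (to 58.1 ± 6.55 CPM, SD, n = 8). Sox21 fell by 4.19 ± 0.16 and Sall3 by 4.09 ± 0.19. In QKO mES cells 1 paralogue rose and 7 fell (median -0.69). Sox11 fell by 4.50 ± 0.18 (to 1.06 ± 0.184 from 24.1 ± 5.79 CPM) and Sox3 by 2.72 ± 0.37, while Pou3f2 rose by 3.23 ± 0.24 (to 6.38 ± 0.384 CPM). In QKO EpiLCs 4 rose and 2 fell (median -0.02), Sox21 among those that rose (1.24 ± 0.20).

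Of 26 genes for protein partners of OCT4, SOX2 and SALL4, 3 rose and 3 fell in the WT transition (median 0.05), and none was called in QKO mES cells (median -0.08). Those that fell in the transition were the naive factors Esrrb (-5.84 ± 0.09), Nr0b1 (-3.62 ± 0.16) and Nanog (-3.39 ± 0.14). In QKO EpiLCs 2 rose and 2 fell (median -0.19). Esrrb rose by 1.5 ± 0.09 (45.1 ± 5.64 against 16 ± 2.08 CPM) and Nr0b1 by 1.79 ± 0.18, Nanog fell by 1.40 ± 0.17 (29.2 ± 1.97 against 77.4 ± 28.9 CPM), and Mta1, a subunit of NuRD, fell by 1.01 ± 0.05.

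Of 14 known OCT4 and SOX2 target genes, 2 rose and 6 fell in the WT transition (median -0.76), led by Spp1 (-4.49 ± 0.11), Fbxo15 (-4.17 ± 0.07) and Zfp42 (-3.78 ± 0.12). In QKO mES cells 1 rose (Zfp42, 1.03 ± 0.13) and 1 fell (Lefty1, -1.74 ± 0.33), with a median of -0.02, where 17.2% of all tested genes were called. In QKO EpiLCs 2 rose and 2 fell (median 0.09), where 21.2% were. Nr0b1 and Zfp42 (1.26 ± 0.13) were up. Nanog and the Nodal co-receptor gene Tdgf1 (-1.73 ± 0.14, 189 ± 4.40 against 630 ± 56.9 CPM) were down. The part of the Sox2 and Pou5f1 levels in these calls was not tested.

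Stage markers in EpiLCs are given beside Sox2. Against WT, 21.2% of all tested genes were called in QKO EpiLCs, 5.67% in LBRKO and 2.91% in TKO. The 10 naive markers summed to 182 to 269 CPM in WT EpiLCs, 194 to 215 in TKO, 228 to 270 in QKO and 316 to 460 in LBRKO. In LBRKO EpiLCs 3 of them were called higher and none lower (median 0.78), and in QKO EpiLCs 4 higher and 1 lower (median 0.20). The 8 primed markers summed to 4149 to 4936 CPM in WT, 4116 to 4445 in TKO, 3259 to 3778 in LBRKO and 3104 to 3274 in QKO, with none called in any of the 3 mutants. Dnmt3b made up most of this sum (3023 ± 211 CPM in WT, SD, n = 8). The median log2 difference of the 8 from WT was -0.40 in LBRKO, -0.02 in TKO and -0.04 in QKO. Residual naive expression and Sox2 were both higher in LBRKO EpiLCs, and the part of one in the other was not tested.

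Markers of other lineages moved as well, and their part in the levels of the 6 genes was not tested. The shares of all tested genes called in EpiLCs, given above for each mutant, are the background for these counts. The 6 neural markers summed to at most 118 CPM in QKO, 147 to 164 in LBRKO and 159 to 199 in TKO EpiLCs against 205 to 250 in WT, with 3 called lower and none higher in QKO and in LBRKO and 1 lower in TKO. Of the 9 primitive endoderm markers 2 rose and 2 fell in QKO EpiLCs: Gata6 rose by 2.96 ± 0.27 (2.90 ± 0.668 against 0.372 ± 0.0919 CPM) and Pdgfra by 2.56 ± 0.27, while Dab2 differed by -1.39 ± 0.20 and Sox7 by -2.27 ± 0.42. Their summed level, of which Lamb1 made up most (272 ± 23.2 CPM in WT), was 216 to 229 CPM in QKO and 251 to 306 in LBRKO EpiLCs against 292 to 362 in WT, and none was called in LBRKO. Trophectoderm markers (7) summed to 41.3 to 44.8 CPM in QKO (1 higher, 2 lower) and 33.7 to 42.4 in LBRKO EpiLCs (none called) against 43.0 to 53.3 in WT.

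Of all tested genes 17.2% were called in QKO against WT mES cells. In mES cells 6 of the primitive endoderm markers, 2 of the trophectoderm markers and 3 of the neural markers were called lower in QKO and none higher. Their sums were 17.1 to 19.6 against 42.9 to 57.8 CPM in WT, 66.7 to 73.1 against 112 to 129, and 127 to 136 against 177 to 206. In TKO mES cells, where neither Lin28 gene was called, primitive endoderm markers summed to 24.9 to 26.6 CPM, with 2 called lower and none higher. In LBRKO mES cells 3 of them were called higher and none lower, and 3 neural markers were called lower and none higher. Of all tested genes 6.45% were called in TKO and 6.31% in LBRKO mES cells. The 2-cell-like markers were at 7.05 to 10.6 CPM in WT EpiLCs and at 0.332 to 2.33 in the EpiLCs of the mutants, with 5 of 5 called lower in each. Fibroblast markers summed to 9.69 to 10.3 CPM in QKO and 11.2 to 14.8 in LBRKO EpiLCs against 18.5 to 24.1 in WT, and mesendoderm markers summed to at most 13.6 CPM in any library.

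For each of the 6 genes, the 3 tested genes with the highest Pearson correlation of log2 CPM over the 40 libraries were taken from 10389 candidates. The libraries fall into 2 stages and share their genotypes, so the points are not independent. Utf1 was followed most closely by Pdzd4, Cacng7 and Tmem54 (r = 0.990, 0.990 and 0.987). Lin28a went with Crmp1, Plxnb1 and Epha1 (r = 0.985, 0.981 and 0.981) and Lin28b with Mid1ip1, Plcg2 and Crybg3 (r = 0.982, 0.979 and 0.976). Epha1, an ephrin receptor gene, was at 8.45 CPM in LBRKO mES cells, 1.90 in WT, 0.286 in TKO and 0.152 in QKO. Likeness to Lin28a follows from how Epha1 was picked. In EpiLCs its order differed from that of Lin28a, at 55.6 CPM in WT, 48.3 in LBRKO, 46.3 in TKO and 14.9 in QKO. Sox2 was matched by the cell cycle factor gene Mybl2 and by Myof and Mreg (r = 0.981, 0.979 and 0.979). For Sall4 they were Prrc2b, Zfhx2 and Ndst1 (r = 0.944, 0.942 and 0.940), and for Pou5f1, which differed least between stages, Dcaf13, Bud23 and the chaperonin gene Cct8 (r = 0.907, 0.900 and 0.894).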

How the data were processed

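Stranded total RNA libraries, depleted of ribosomal RNA, were made from 40 cultures. Per the study's methods and the submitters' processing notes, the authors trimmed reads with cutadapt 2.5, aligned them with STAR 2.7.10a to GRCm39 (GENCODE M30) and deposited whole-number read counts per gene made with featureCounts 1.6.4 from reads with a single alignment. A second deposited table holds counts of such single-alignment reads on single transposable element (TE) copies and gave the reads on intronic copies. Another holds counts of genes and TE families with up to 100 alignments per read, and its gene counts served as an alternative.

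Groups came from the sample titles. The members and the gene lists were chosen with earlier results of these data known. Of 56748 gene identifiers, 56017 matched GENCODE M39, the annotation used here for positions and 3′ UTRs. Counts of all 40 libraries were fitted together with edgeR 4.0.16 (R 4.3.3; TMM, filterByExpr on the 8 groups, quasi-likelihood test), and 23399 genes were tested. The fit was checked on simulated data with known changes. SE is the log2 fold change divided by the square root of F. Ratios and TE reads (log2 of CPM + 0.1; TMM library sizes of the gene counts; copies inside a gene and clear of exons of any gene; genes with a mean of at least 20 reads) were compared by two-sided exact permutation tests over libraries, adjusted over 24 and 28 tests. Libraries held 22594640 to 48863506 gene counts.

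Named genes are the 6 members, the 4 targeted genes, up to 4 genes of each list with the largest change among those called in the WT transition and in QKO against WT, and for each member the 3 genes of highest correlation among those with a mean of at least 5 CPM; Hmga2 in TKO was named after its value was seen. Deviations from the group mean correlated at 0.11 to 0.62 between WT stages of the same replicate number, over 0.1 in 8 of 8 pairs. Only 3 of these correlated best with their own number. For TKO with WT mES cells 3 of 4 did, and for QKO mES cells with EpiLCs 1 of 4. Replicate numbers were thus not taken as pairs in the main fit. Within each of the 8 groups no 2 libraries were duplicates. Libraries of different groups were not compared in this way. Alternatives were DESeq2 1.42.0, other scalings, no filter, the compared groups alone, each WT set alone, a replicate block, each library left out, the table with several alignments, TE copies at least 500 bases from exons and, chosen after seeing the data, a term for depth set. Sequences are from RefSeq (GRCm38.p6) and the GRCm39 genome; protein sequences were not used here.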

Additional observations from a re-analysis of the deposited data

Results flagged for a closer look

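Of 96 groups of 4 or 8 libraries, 7 held a library far from the others of its group by Dixon's test, and chance marks about 1 group in 20. In LBRKO mES cells, replicate 3 had 250 CPM of Sox2 where the others had 213 to 217, and replicate 4 had 489 CPM of Sall4 where the others had 554 to 562. In LBRKO EpiLCs, replicate 3 had 60.7 CPM of Lin28b where the others had 34.8 to 37.3, and a Lin28b to Lin28a ratio of 0.0414 where the others had 0.0238 to 0.0253. Reads on intronic TE copies of Lin28b were at 28.7 CPM in WT EpiLC replicate 7 (others 9.48 to 16.5) and at 2.85 CPM in TKO mES replicate 4 (others 1.49 to 1.64), and those of Pou5f1 at 1.24 CPM in WT mES replicate 7 (others 0.187 to 0.651).

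Of the tested differences between effects, 4 passed the threshold. The change of Sox2 from mES cells to EpiLCs differed from that in WT by 1.48 in LBRKO and by 1.15 in QKO on the log2 scale, that of Lin28b by 1.25 in QKO, and Lin28a in QKO mES cells differed by -1.47 from the sum of the LBRKO and TKO differences.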

How the results depend on the processing

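Of the 25 called values of the 6 genes, none reversed under 526 alternatives, and 515 kept their side of the threshold. Of the 77 values not called, 24, all between -0.23 and 0.1 on the log2 scale, changed sign under some alternative without an adjusted p below 0.05 on either side. Scaling by the upper quartile moved all genes by 0.12 (QKO against WT mES), 0.18 (QKO against WT EpiLC), 0.12 (QKO against TKO EpiLC), 0.11 (LBRKO transition) and 0.14 (QKO transition); DESeq2 size factors moved them by at most 0.04.

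The choice of WT libraries changed most. With WT replicates 1 to 4 the number of the 6 genes called was 1 for LBRKO against WT in each stage, 1 for QKO against WT mES, 2 for the LBRKO and 1 for the QKO transition against that of WT, and 3 for QKO against the sum in mES cells. With WT replicates 5 to 8 it was 0 for QKO against WT EpiLC and 1 for the QKO transition. The term for depth set, chosen after seeing the data, left 1 for QKO against WT mES and 1 for the QKO transition. Without a filter on low counts, 2 were called for QKO against the sum in mES cells. The replicate block left 1 for QKO against WT mES (Lin28a at -0.95) and gave 2 for QKO against the sum in mES cells. It changed no other count past 1.5 times, and replicate numbers did not clearly pair the libraries.

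The difference in log2 Sox2 to Pou5f1 ratio of QKO against WT mES was 0.05 with all 8 WT libraries, -0.15 when WT replicates 1 to 4 were kept and 0.24 when 5 to 8 were, so its sign depends on the WT set. With WT replicates 5 to 8 it was -0.26 for LBRKO and 0.33 for TKO in mES cells, and the Lin28b to Lin28a ratio of LBRKO EpiLCs was -0.68. With several alignments per read, the Sox2 to Pou5f1 ratio of QKO against TKO mES was -0.06. For intronic TE reads with WT replicates 1 to 4, no test passed: Sall4 was at 0.76 (WT transition), 1.17 (QKO mES), 0.34 (TKO EpiLC) and 0.57 (QKO EpiLC), Lin28a at 3.12 (WT transition) and 0.82 (QKO EpiLC), and Lin28b at 3.00 (WT transition). With replicates 5 to 8 these were 0.33, 0.79, 0.39, 0.61, 2.19, 0.85 and 2.43. Having fewer libraries raised the smallest p to 0.0286.

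Leaving out each library in turn gave 0 to 2 calls for LBRKO against WT EpiLC (2 without LBRKO EpiLC replicate 3), 0 to 1 for QKO against TKO EpiLC (0 without QKO EpiLC replicate 3) and 1 to 2 for QKO against the sum in mES cells. It moved the Sox2 to Pou5f1 ratio of QKO against TKO mES over -0.10 to -0.08, the Lin28b to Lin28a ratio over 0.22 to 0.33 for TKO against WT EpiLC and -0.30 to -0.20 for QKO against TKO EpiLC, and Sall4 TE reads of TKO against WT EpiLC over 0.29 to 0.41. The sign-flip test of 4 mutant pairs cannot reach 0.05 and was compared by value. Of 400 alternatives for counts of called genes 381, and of 745 for ratios and TE reads 712, stayed the same. The cause of these shifts was not tested. Depth limits the intronic reads most: in mES cells they came to 6 to 49 in WT for Pou5f1 and to 3 to 22 in QKO for Lin28a.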
